A study of Mus musculus with 6 samples.

Results

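The genes described here are 8 targets of Notch signalling, several of which belong to the segmentation clock of the vertebrate embryo: Hes1, Hes5, Hes7, Hey1, Hey2, Heyl, Lfng and Nrarp. They were chosen by name, and every probe set that the array annotation gives to one of these symbols was taken, 13 probe sets of the 45037 tested and 8 genes of 18193. Of the 8 genes, 4 had 1 probe set (Hes1, Hes7, Hey1 and Hey2), 3 had 2 (Hes5, Lfng and Nrarp) and 1 had 3 (Heyl). The mouse embryos were of embryonic day 7.75 to 8 (0 to 2 somites) on a mixed C57BL/6 and 129/Sv background, and RNA came from the dissected node and primitive streak. One genotype was Wnt3a null and the other wild type, with 3 pools of 3 embryos each and 1 Affymetrix array per pool. The series asks which genes act downstream of Wnt3a, a secreted Wnt ligand of the posterior embryo, at a stage before mutants look abnormal. The sources used here do not say what the null allele removes from Wnt3a. Because a pool mixes whole dissected regions, fewer cells of a type and less RNA per cell cannot be told apart in any value below.

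When a Notch receptor is bound by a ligand on a neighbouring cell, its intracellular part is cut free, enters the nucleus and joins the DNA-binding protein RBPJ to switch on target genes. The best known targets encode basic helix-loop-helix (bHLH) repressors of the Hes and Hey families. In presomitic mesoderm, the tissue that is cut into somites, Hes7 and Lfng are transcribed in waves, because Hes7 represses both its own gene and Lfng. Genes of the Wnt and FGF pathways, such as Axin2, also oscillate there, and the ligand Dll1 is a known link between Wnt signalling and Notch in this tissue.

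Promoter sequence bears on these genes because RBPJ acts through short sites near the start of its targets. RefSeq promoter windows of build GRCm38.p6 were matched for 5 of the 8 genes (Hes5, Hes7, Hey2, Lfng and Nrarp), and the 250 bases before each transcript start were searched on both strands. The 4 windows of genes with lower mean signals in null pools are shown, written along the gene, lower case, with matches to the RBPJ core TGGGAA in capitals. A match on the opposite strand reads TTCCCA.
Hes5, chr4:154960673-154960922, + strand: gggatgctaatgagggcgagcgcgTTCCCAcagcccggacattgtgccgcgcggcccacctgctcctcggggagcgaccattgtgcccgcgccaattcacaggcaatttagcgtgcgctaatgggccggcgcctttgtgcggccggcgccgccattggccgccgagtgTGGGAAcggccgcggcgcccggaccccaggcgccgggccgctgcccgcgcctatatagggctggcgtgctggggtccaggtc
Hes7, chr11:69120203-69120452, + strand: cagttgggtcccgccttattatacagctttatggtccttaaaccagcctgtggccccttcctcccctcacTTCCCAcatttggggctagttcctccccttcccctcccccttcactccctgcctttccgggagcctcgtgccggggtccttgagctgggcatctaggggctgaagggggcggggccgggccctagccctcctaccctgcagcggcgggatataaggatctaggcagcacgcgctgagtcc
Lfng, chr5:140607091-140607340, + strand: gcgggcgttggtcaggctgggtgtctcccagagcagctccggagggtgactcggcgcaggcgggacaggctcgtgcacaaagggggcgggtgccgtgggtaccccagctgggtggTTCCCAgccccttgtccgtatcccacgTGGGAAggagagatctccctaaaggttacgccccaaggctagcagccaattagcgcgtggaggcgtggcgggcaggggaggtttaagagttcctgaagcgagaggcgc
Nrarp, chr2:25180508-25180757, + strand: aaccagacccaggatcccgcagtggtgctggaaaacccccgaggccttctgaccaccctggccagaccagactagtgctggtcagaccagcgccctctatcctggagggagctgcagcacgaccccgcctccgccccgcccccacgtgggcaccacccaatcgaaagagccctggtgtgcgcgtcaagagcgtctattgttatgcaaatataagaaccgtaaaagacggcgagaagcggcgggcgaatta

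The Hes5 window held 2 matches to the RBPJ core, 1 on each strand, which began 226 and 82 bases before the start. Both also matched the 7-base form GTGGGAA, which contains the core. Hes7 held 1 core match, 180 bases before the start, and Lfng held 2, at 135 and 108. Hey2 held 1, at 207, and Nrarp held 0. The matches of Hes7 and Hey2 and the one of Lfng at 108 had the 7-base form too, so 4 of the 5 windows carried it. A core match occurred in 21.6% of all 32851 windows of this length and 2 or more in 2.77%, while the 7-base form occurred in 5.42%. The N-box CACNAG, a site bound by Hes repressors, had 1 match in Hes7, 1 in Lfng, 2 in Nrarp and 0 in Hes5 and Hey2, against 36.7% of all windows with at least 1. The core of TCF/LEF sites, CTTTGA, through which Wnt signals reach DNA, had 0 matches in these 5 windows (13.8% of all windows), and the T-box core AGGTGT had 0 as well (11.8%). These counts describe letters in short windows, not occupied sites, and enhancers farther away were not searched.

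**Figure D1:**
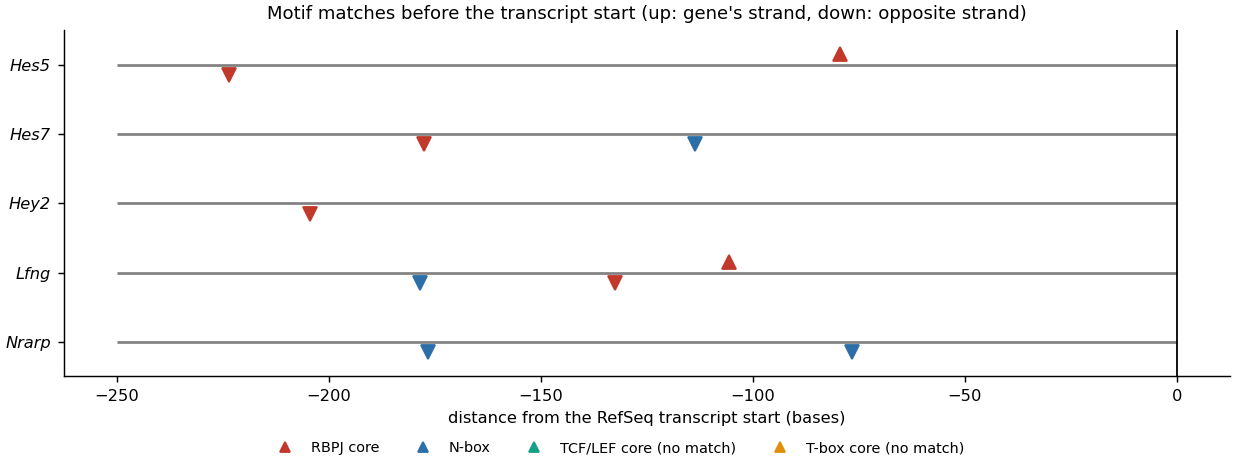
Positions of motif matches in the 250 bases before the RefSeq transcript start of Hes5, Hes7, Hey2, Lfng and Nrarp. The horizontal axis is the distance from the start in bases, each triangle is 1 match, pointing up on the gene's own strand and down on the opposite strand, and colours mark the motif. RBPJ core matches stand in 4 of the 5 windows, and no TCF/LEF or T-box core match stands in any of them.

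Some facts of the arrays bear on all values. Signals are linear and scaled to a common mean on every array, and the median probe set had a mean log2 signal of 6.16, equal to a signal of 71.5. The brightest probe set of each of the 8 genes lay above that median, whereas 4 of the 13 probe sets lay below it, namely the dimmer ones of Hes5, Heyl (2) and Lfng. The Gapdh 3' to 5' ratio, which rises as RNA breaks down, ran from 2.09 to 2.39 in the null pools and higher, from 2.51 to 3.00, in the wild type. Beta-actin did not separate the genotypes in this way, with ratios of 2.38, 3.83 and 3.13 (null) and 2.68, 3.69 and 3.23 (wild type), and the part of either in any difference was not tested. Wild-type pool 1 stood apart in sex composition, with a signal of 4.31 for the Y-linked gene Eif2s3y against 1053 to 1788 in the other 5 pools. The probe set of Wnt3a itself had 961, 761 and 1009 in null and 864, 1058 and 996 in wild-type pools (log2 difference -0.10, limma, adjusted p = 1.00), so it does not separate the genotypes. Markers of the dissected region were present: 8 of 9 primitive streak markers and 5 of 6 measured node and notochord markers lay above the median signal.

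Hes5, Hes7, Lfng, Nrarp, Hes1 and Hey1 had lower mean signals in Wnt3a null pools and Heyl and Hey2 had higher ones, by the brightest probe set of each gene: 6 of 8 were lower in value, against 49.2% of all genes. Over probe sets 10 of 13 were lower in value, against 48.3% of all. The sizes ran from 3.42-fold lower for Hes5 to 1.64-fold higher for Heyl, with a median log2 difference of -0.44 over the 8 genes against 0.00 over all genes. None of these differences passed the test across all probe sets. The limma fit without pairing called 0 of the 13 probe sets lower (background 0%) and 0 higher (background 0%) after Benjamini-Hochberg adjustment over 45037 probe sets. At an unadjusted p under 0.05 it had 3 lower (2 of Hes5 and that of Hes7) against 2.2% of all probe sets, and 1 higher (Heyl) against 2.84%. In limma with pairs as a block plus the trend and robust options of eBayes, called the paired fit below, again 0 of the 13 passed (background 0.0311% lower and 0.0178% higher), and the smallest adjusted p was 0.118, for Hes5. That fit had 6 of the 13 lower at an unadjusted p under 0.05, against a background of 3.28%, and 0 higher, against 4.39%. With 3 pools against 3, a two-sided exact permutation test of a single gene cannot go below p = 0.1. P-values set a difference against the spread between pools of embryos of one genotype, or, in the paired fit, against the spread of the pair differences.

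Counted by ranges, the genotypes did not overlap in 5 of the 13 probe sets. In 4 of them every null pool lay below every wild-type pool (both Hes5 probe sets, Hes7 and the brighter Nrarp probe set), against 4.41% of all probe sets, and in 1 every null pool lay above (Heyl), against 5.57%. Within replicate numbers, 7 of the 13 were lower in all 3 pairs (background 13.7%) and 2 were higher in all 3 (Hey2 and the brightest Heyl probe set, background 15%). The 13 probe sets belong to 8 genes and were proposed with results of these data in view, so the counts are descriptions.

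**Figure D2:**
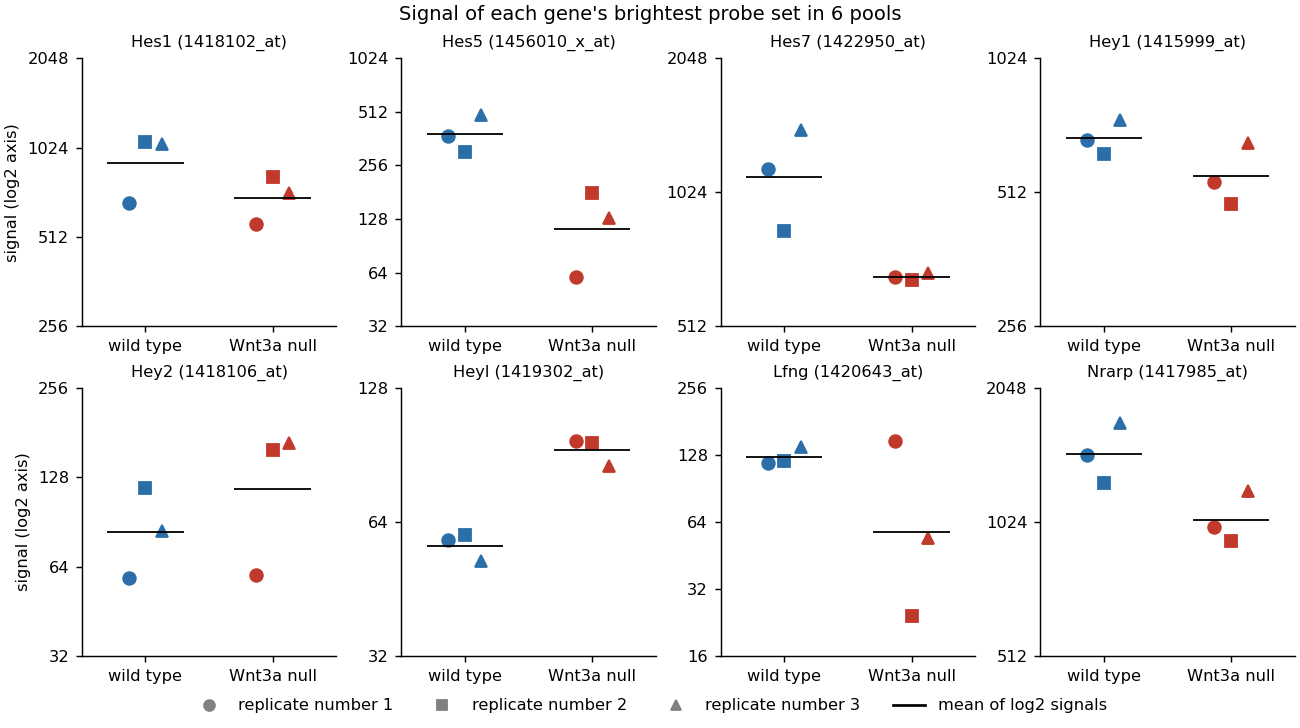
Signal of the brightest probe set of each of the 8 genes in the 6 pools, on a log2 axis with its own range in each panel. Blue points are wild-type and red points Wnt3a null pools, the shape gives the replicate number and the line is the mean of the log2 signals. The genotypes are apart in Hes5, Hes7, Heyl and Nrarp and overlap in Hes1, Hey1, Hey2 and Lfng.

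Hes7, the oscillating repressor without which somite boundaries form irregularly, had signals of 660, 652 and 674 in null pools 1 to 3 and of 1154, 838 and 1413 in the matching wild-type pools. All null pools lay below all wild-type pools, and the null pools were nearly equal while the wild-type pools were spread over 1.69-fold. The means were 662 ± 10.9 and 1135 ± 288 (SD, n = 3 each), a log2 difference of -0.75 (1.68-fold lower) with a 95% interval from -1.39 to -0.10. In limma the adjusted p was 0.963 without pairing and 0.173 in the paired fit, whose interval was -1.09 to -0.40. By pair the log2 differences were -0.81, -0.36 and -1.07, smallest in pair 2, whose wild-type pool had the lowest wild-type signal.

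Hes5, a direct Notch target best known for keeping neural progenitors undifferentiated, had the largest difference among the 8 genes. Its brighter probe set (1456010_x_at, whose suffix marks probes that may also bind related sequences) had 60.4, 179 and 130 in null and 373, 306 and 493 in wild-type pools. Every null pool was below every wild-type pool, and the lowest was null pool 1. The log2 difference was -1.78 (3.42-fold lower), with an interval from -2.93 to -0.62, and limma's adjusted p was 0.772 without pairing and 0.118 in the paired fit. The second probe set (1423146_at) had 60.1, 48.0 and 13.6 against 208, 106 and 129, again without overlap, and a log2 difference of -2.06 (interval -3.65 to -0.47), which was -1.13 on the scale of log2(signal + 50). Both probe sets of Hes5 were thus lower in each of the 3 pairs, from -0.77 to -2.63 in the brighter and from -1.15 to -3.24 in the dimmer one. All 3 null signals of the dimmer probe set were under the median signal of the arrays, where log2 values vary widely.

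Leaving out the second pair in the paired fit, an alternative added after the data were seen, brought 2 of the 13 probe sets past the threshold. They were the brighter one of Hes5 (limma, adjusted p = 0.00135) and that of Hes7 (limma, adjusted p = 0.0167), with log2 differences of -2.28 and -0.94. That fit had only 2 pools per genotype. The pair left out held the smallest difference of both probe sets (-0.77 for Hes5 and -0.36 for Hes7), so its removal favoured these calls. Without pair 1 and without pair 3, 0 of the 13 passed, and the smallest adjusted p values were 0.246 and 0.292 (limma). Over all probe sets the fit without pair 2 called 68 lower and 70 higher, against 14 and 8 with every pair.

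Lfng encodes a glycosyltransferase that adds sugar to Notch receptors and alters which ligands they answer to, and its waves of transcription depend on Notch and Hes7. Its brighter probe set (1420643_at) had 148, 24.2 and 54.1 in null pools and 117, 121 and 138 in wild-type pools. Null pool 1 was the highest of all 6 and null pool 2 the lowest, so the genotypes overlapped, while the wild-type pools lay close together. By pair the log2 differences were 0.34, -2.32 and -1.36, on both sides of 0. The log2 difference was -1.11 with an interval from -2.77 to 0.54 (limma, adjusted p = 1.00, or 0.638 in the paired fit), and it was -1.79 without null pool 1 and -0.48 without null pool 2. The other Lfng probe set (1449943_at) had signals of 3.13 to 8.95 in all pools, at the floor of the arrays, and carries no order.

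Nrarp encodes a small ankyrin-repeat protein that is switched on by Notch and in turn limits it, and that also acts on the Wnt mediator LEF1. The brighter probe set (1417985_at) had 995, 928 and 1200.5 in null and 1448, 1251 and 1704 in wild-type pools. The genotypes did not overlap, although the highest null pool came close to the lowest wild-type pool, and the 3 pair differences were alike at -0.54, -0.43 and -0.51. The log2 difference was -0.49 (1.41-fold lower, interval -1.06 to 0.08; limma, adjusted p = 1.00), or -0.75 to -0.23 with an adjusted p of 0.272 in the paired limma fit. The second probe set (1417986_at) had 302, 198 and 261 against 355, 285 and 286. Its genotypes overlapped, its log2 difference was -0.30, and each of its pairs was lower too.

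Hes1, a Hes repressor made in many embryonic tissues, had 568, 818 and 723 in null and 667, 1069.9 and 1055 in wild-type pools. In both genotypes pool 1 was the lowest and the genotypes overlapped, but within each number the null pool was lower, by log2 differences of -0.23, -0.39 and -0.55. The mean difference was -0.39, with an interval from -1.11 to 0.34 in the unpaired limma fit (adjusted p = 1.00) and from -0.69 to -0.08 in the paired one (adjusted p = 0.539). Without wild-type pool 1 the difference was -0.61, without null pool 1 it was -0.24, and without wild-type pools 2 or 3 it was -0.27 and -0.28.

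The Hey genes encode repressors related to Hes that act in blood vessels, heart and somites. Hey1 had 541, 482 and 660 in null and 671, 623 and 745 in wild-type pools. The genotypes overlapped because null pool 3 lay above wild-type pool 2, and the log2 difference was -0.28 with an interval from -0.83 to 0.26 (limma, adjusted p = 1.00, or 0.693 in the paired fit). Hey2, by contrast, was higher in value in each pair, with 60.0, 158 and 167 against 58.6, 118 and 84.4. Pair 1 was nearly equal (0.03) and pair 3 was apart (0.99), for a mean log2 difference of 0.48 with an interval from -0.78 to 1.74 (limma, adjusted p = 1.00). The difference was 0.96 without null pool 1 and 0.73 without wild-type pool 2, but 0.26 without null pool 2 and 0.22 without null pool 3 or without wild-type pool 1.

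Heyl, a Hey relative made in somites and in vessel walls, had a brightest probe set (1419302_at) with 97.0, 96.2 and 85.5 in null pools and 58.3, 59.7 and 52.2 in wild-type pools. All null pools lay above all wild-type pools, and the pair differences were close to each other at 0.74, 0.69 and 0.71. The log2 difference of 0.71 (1.64-fold higher) had an interval from 0.23 to 1.19 and an adjusted p of 0.798 in the unpaired limma fit. In the paired limma fit the interval was -0.15 to 1.57 and the adjusted p 0.715. The remaining Heyl probe sets did not share the difference: 1438886_at had 11.4, 47.6 and 8.31 against 52.7, 11.4 and 24.7, and 1419303_at had 7.05, 56.0 and 16.8 against 34.9, 3.58 and 60.3. Both overlapped, at signals below the median, and pair 2 went the opposite way from pairs 1 and 3 in each of them.

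**Figure D3:**
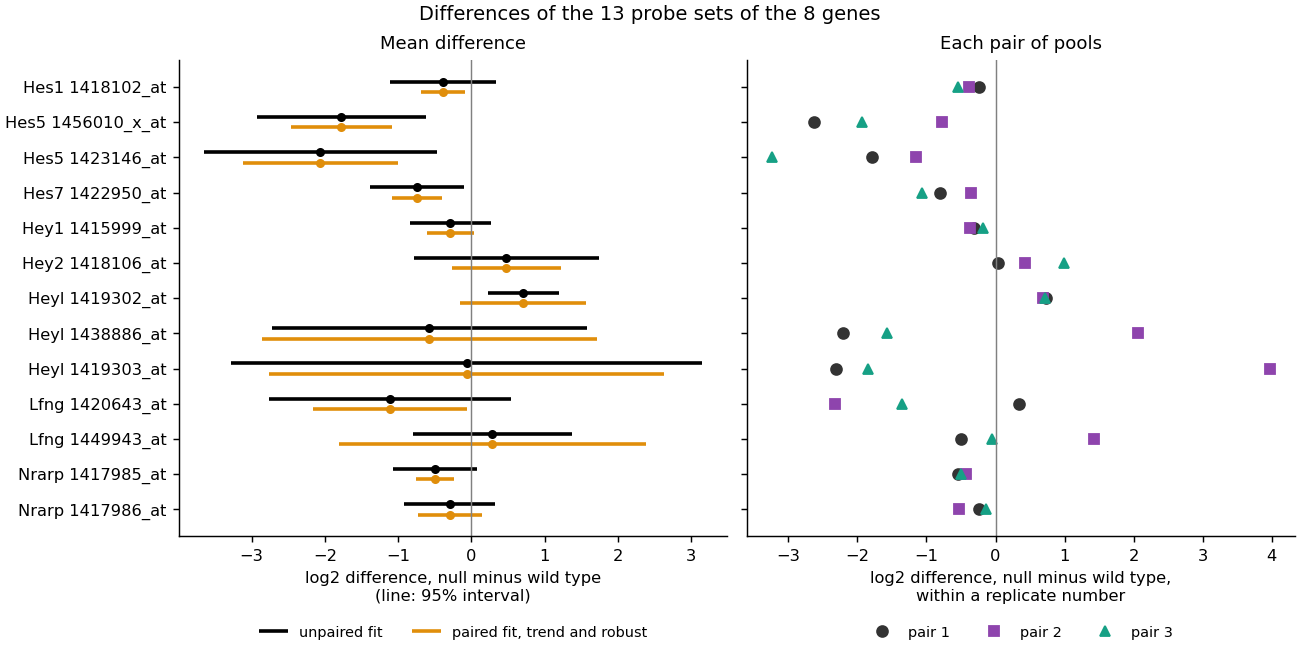
Log2 differences, null minus wild type, of the 13 probe sets. The left panel gives the mean difference with its 95% interval without pairing (black) and in the paired fit (orange), and the right panel gives the difference within each replicate number. The intervals of both fits lie below 0 for both Hes5 probe sets and for Hes7. The dim Heyl probe sets and both Lfng probe sets have pairs on both sides of 0.

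Other genes of the pathway were taken as 5 lists, each gene by its brightest probe set, against a background of 4.56% of all genes with null pools all below and 5.56% all above wild type. In the unpaired limma fit 0 genes of any list were called in either direction, as were 0 of all 18193 genes (0% lower, 0% higher). At an unadjusted p under 0.05, to which 1.9% of all genes came lower and 2.56% higher, the lists had 1, 0, 0, 5 and 2 genes lower and 0, 0, 0, 0 and 3 higher, in the order of the paragraphs that follow. The paired fit, in which 0.0495% of all genes were lower and 0.0165% higher after adjustment over probe sets, called Dll1, Axin2 and Sp5 lower and none of the lists' genes higher.

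Of 21 measured ligands, receptors and core mediators of Notch, 10 had lower and 11 higher values, with a median log2 difference of 0.02, and 3 were lower without overlap. Dll1, the main Notch ligand of presomitic mesoderm, had 2554, 3416 and 2602 in null and 4598, 5321 and 3842 in wild-type pools. Its log2 difference was -0.68 (interval -1.28 to -0.08) and its adjusted p 0.972 in the unpaired and 0.0460 in the paired limma fit. Notch1, a receptor, had a log2 difference of -0.43, and Rbpj, the DNA-binding partner of all Notch receptors, one of -0.24, both with every null pool below every wild-type pool. Jag1, another ligand, overlapped at -0.20. By pair, Dll1 differed by -0.85, -0.64 and -0.56, with its largest difference in pair 1. By their brightest probe sets, Hes5 and Nrarp were also lowest against wild type in pair 1. Hey1 and Lfng were so in pair 2, and Hes7 and Hes1 in pair 3. The dimmer probe sets of Hes5 and Nrarp did not repeat this order. That of Hes5 was lowest in pair 3 (-3.24) and that of Nrarp in pair 2 (-0.52). A link of these orders to Dll1 was not tested.

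Among the 14 modulators of Notch, 8 were lower and 6 higher in value, with a median of -0.08. Dtx1, a ubiquitin ligase gene, had a log2 difference of 0.44 without overlap, and Fbxw7, whose product marks the active receptor fragment for destruction, -0.27 without overlap. Itch had 0.31 and Numbl -0.43, both with overlap. Of 10 measured Hes-related bHLH genes and Groucho corepressors, 6 were lower and 4 higher in value (median -0.08). Tle3, a corepressor that Hes proteins recruit, had -0.22 and was the single gene of that list without overlap, while Bhlhe40 (0.98), Tle6 (0.82) and Hes2 (-1.54) overlapped. Signals of Hes2 were 3.14 to 48.5, under the median of the arrays.

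The Wnt and FGF branch of the clock had 9 of 15 genes lower in value and a median of -0.21, with 5 lower and 1 higher without overlap. Those 5 were Axin2, Nkd1, Dkk1, Sp5 and Tnfrsf19. The FGF genes of the list (Spry1, Spry2, Spry4, Dusp4, Dusp6, Snai1, Etv4 and Etv5) all overlapped. Etv4 had a log2 difference of -0.94, Dusp4 one of -0.33, and the others ran from -0.12 to 0.14. Axin2, a Wnt feedback inhibitor that oscillates in presomitic mesoderm, had a log2 difference of -1.05 (limma, adjusted p = 0.425 unpaired and 0.00827 in the paired fit), and the zinc finger gene Sp5 one of -1.69 (limma, adjusted p = 0.470 and 0.0270). Tnfrsf19, a receptor gene, had -0.72 and Dkk1, a secreted Wnt antagonist, -1.15, neither past the threshold. Presomitic mesoderm and segment boundary genes had 5 of 16 measured genes lower and 11 higher in value (median 0.20), with 2 lower and 2 higher without overlap. Tbx6, a T-box gene required for paraxial mesoderm, had 704, 652 and 612 in null and 1107, 1120.2 and 1069 in wild-type pools. That is a log2 difference of -0.75, with pairs of -0.65, -0.78 and -0.80, and a limma adjusted p of 0.739 unpaired and 0.118 paired. Ripply2 and Mesp2, which act where the next segment boundary forms, had 1.85 and 1.25 in the opposite direction (limma, adjusted p = 0.862 and 0.987), and Fgf17 had -0.70. Those without overlap were Tbx6 and Fgf17 (lower) and Ripply2 and Tcf15 (higher, 0.78 for Tcf15), while Mesp2 overlapped.

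**Figure D4:**
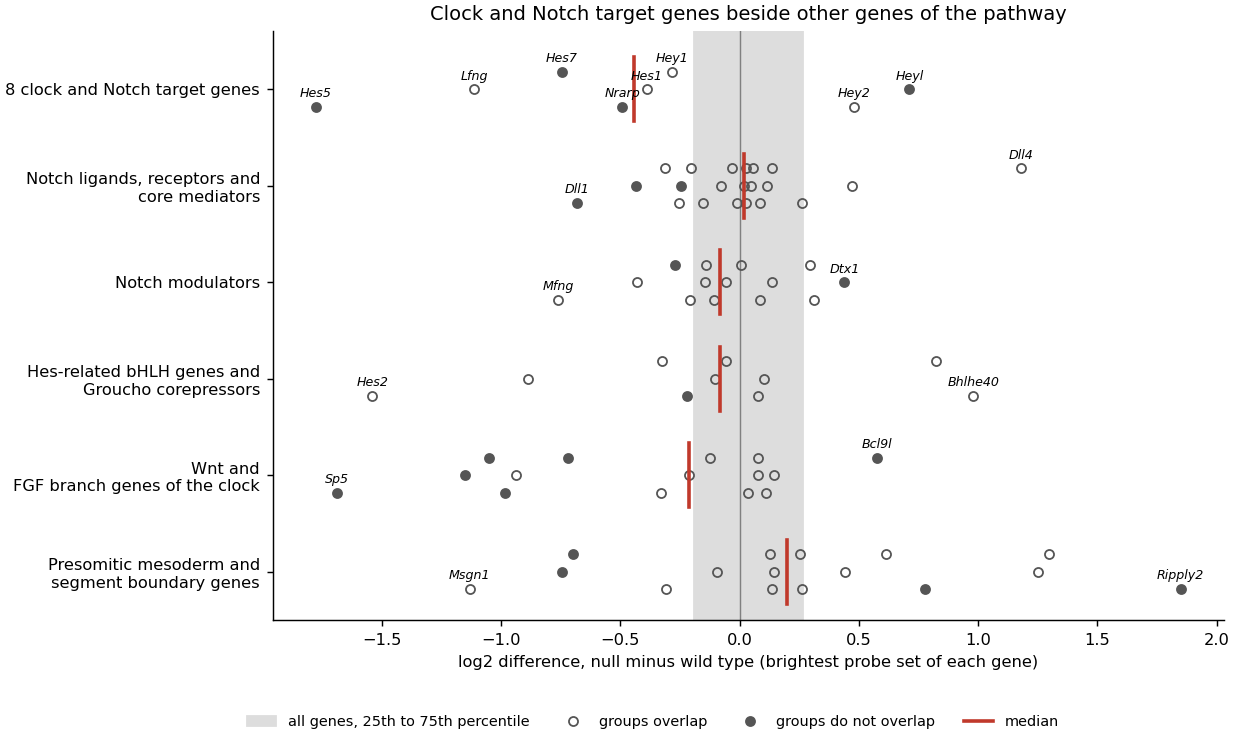
Log2 differences, null minus wild type, of the 8 clock and Notch target genes and of 5 lists of other pathway genes, 1 point per gene by its brightest probe set. Filled points are genes whose genotypes do not overlap, red bars are medians, the grey band spans the 25th to 75th percentile of all genes (-0.19 to 0.27), and names mark all genes of the top row and the lowest and highest of each list. The 8 genes run from -1.78 to 0.71 with a median of -0.44, while the core Notch genes centre on 0.02.

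Marker genes of the cell types in the region were set beside the 8 genes, and their part in the differences was not tested. The unpaired limma fit called 0 of them in either direction. The paired one called 1 neural marker (Irx3) and 1 heart marker (Tbx20) higher, against 0.0165% of all genes. It called 2 primitive streak markers and 1 paraxial mesoderm marker (Dll1) lower, against 0.0495% of all genes, and 0 in the other 2 lists. Neural plate markers, the tissue in which Hes5 is best known, were higher in value in 9 of 10 genes, 5 of them without overlap (background 5.56%). Their summed signal was 7201 to 8056 in null pools against 4480 to 5534 in the wild type. Irx3 (mean 2098 in null, 794 in wild type) and Zic5 (1348 and 812) differed most in signal, while Pax6 was lower (log2 difference -0.63). Endothelium and blood markers, beside Hey2 and Heyl, were higher in 10 of 10, at summed signals of 2477 to 2862 against 1488 to 2345. Of these, 1 (Kdr) was higher without overlap (background 5.56%), and 0 had an unadjusted p under 0.05 in the unpaired limma fit (background 2.56%). Cdh5, Pecam1, Tek, Gata1, Hba-x and Lyve1 had pairs on both sides of 0. Heart markers were higher in 9 of 12, at 4833 to 5660 against 2825 to 3731. In each of these 3 lists 4 markers lay below the median signal. Primitive streak markers were lower in 7 of 9, at 5830 to 6533 against 10362 to 12503. That list holds the Wnt targets Cdx1, Cdx2 and Sp5, the last also counted in the Wnt branch above, and without them, a choice made after the data were seen, the sums were 2238 to 2400.2 against 3225 to 5696, with 4 of 6 lower in value. Node and notochord markers were lower in 4 of 6 (1447 to 2338 against 1746 to 3327). The 8 paraxial mesoderm markers, beside Hes7 and Lfng, were split, with 4 lower and 4 higher in value and summed signals of 7923 to 10451 against 9942 to 10850.1. All 8 are also counted in the pathway lists above, among them Dll1 and Tbx6 (lower) and Mesp2 (higher). The brightest were Dll1 and Pcdh8, and Pcdh8 differed by -0.49, 1.35 and -0.08 by pair. The list is therefore no separate measure of the amount of this tissue.

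**Figure D5:**
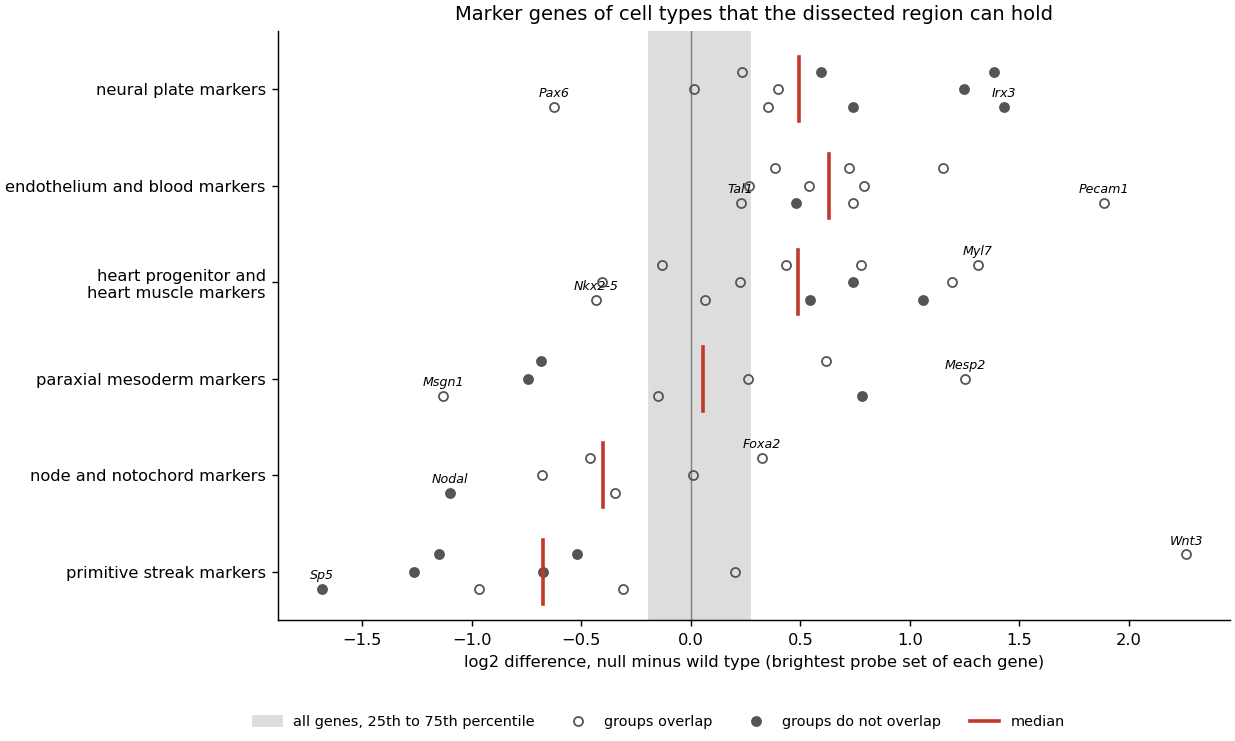
Log2 differences, null minus wild type, of marker genes of 6 cell types that the dissected region can hold, 1 point per gene by its brightest probe set. Symbols, bars and the grey band are as in the plot of pathway lists. Neural, heart and blood vessel markers lie mostly above 0 and primitive streak markers mostly below, with paraxial mesoderm markers on both sides.

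The likeness of whole profiles was described by Pearson's r of log2 signal over the 6 arrays, for the 4 genes whose brightest probe set had a mean log2 of 8 or more, against 8009 other genes of that brightness. The highest were Csnk1g1 (0.98), Heph (0.97) and Arhgap42 (0.96) for Hes7, and Ap1m1 (0.99), Mre11a (0.99) and Ttc28 (0.99) for Hes1. For Hey1 they were Med4 (0.99), Dgcr6 (0.99) and Gmnn (0.99), and for Nrarp Idh3b (0.99), Siah2 (0.99) and Pcyox1 (0.98). With so few arrays high values are common: 72 genes exceeded 0.9 for Hes7, 160 for Hes1, 79 for Hey1 and 75 for Nrarp.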

How the data were processed

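Each embryo's RNA (30 to 50 ng) was amplified once, products of 3 embryos were pooled (600 ng), amplified again with biotin and put on 1 mouse array, per the labels' protocols. The deposited table holds 1 linear intensity per probe set and array. RMA is the tool in the submitters' processing notes, yet the deposited intensities are linear, with a mean of 500 on each array after trimming 2% at each end. RMA output does not have that form, and the step used was not given in the sources used here. Control probe sets (64) were dropped. Of the others, 34945 had 1 gene symbol, 932 several and 9160 were not listed. By gene ID 34741 matched RefSeq genes of GRCm38.p6.

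Log2 signals were compared in R 4.3.3 with limma 3.58.1 (lmFit, eBayes), two-sided, with Benjamini-Hochberg adjustment over 45037 probe sets and a threshold of 0.05. No floor or filter was set. The fit was tested on simulated data. The 8 genes and all lists were chosen with earlier results of these data known. Named genes were the 8, Wnt3a, up to 4 of smallest p per pathway list and 3 of most alike profile per bright gene; other genes were named after their values were seen.

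Labels give both genotypes replicates 1 to 3. Deviations from genotype means correlated within a number at 0.331, 0.343 and 0.209 over the 22518 probe sets above the median signal (at most -0.0475 between numbers), above the bound of 0.1, so the numbers were taken to pair the pools. Over all probe sets the values within a number were 0.0537, 0.0524 and 0.0338. Deviations from a mean cancel out within a genotype, so positive values within numbers by themselves bring negative ones between numbers. The latter are therefore no separate sign of pairing. What pools of one number share is not in the labels.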

Additional observations from a re-analysis of the deposited data

How the results depend on the processing

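Of 18 alternatives, 6 change only the test and leave each log2 difference as it is by construction. The other 12 gave 156 new log2 differences for the 13 probe sets, of which 147 kept the direction. The brightest probe set of each gene kept it in all 12: Hes7 ran from -0.95 to -0.57, Hes5 from -2.28 to -1.33, Heyl from 0.42 to 0.77, Nrarp from -0.60 to -0.38, Hes1 from -0.61 to -0.24, Hey1 from -0.41 to -0.18, Hey2 from 0.22 to 0.96 and Lfng from -1.84 to -0.48. The 9 reversals were in dim probe sets. Heyl 1419303_at (-0.06) became 0.64 without null replicate 1, 0.02 without null replicate 3, 0.35 without wild-type replicate 1 and 0.75 without wild-type replicate 3 (from -1.29 to 0.75 over the single arrays left out), and in the paired fit 1.06 without pair 1 and 0.83 without pair 3. Heyl 1438886_at became 0.24 without pair 1, and Lfng 1449943_at became -0.15 without null replicate 2 (from -0.15 to 0.61 over the single arrays) and -0.28 without pair 2. The cause was not tested.

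The replicate block alone called 0 probe sets lower and 0 higher in limma, with a smallest adjusted p of 0.826 among the 13. With trend and robust options the block called 14 lower and 8 higher over all probe sets, and without the block these options called 1 lower. Without pair 1 the paired fit called 10 lower and 11 higher, without pair 2 it called 68 and 70, 2 of them among the 13 (Hes5 and Hes7), and without pair 3 it called 10 and 17. Leaving out single arrays called 0 probe sets in either direction in each of 6 fits. Settings that left both counts at 0 were a filter at the median signal, log2(signal + 50), median centring, quantile normalization, 1 probe set per gene and a threshold of 0.1. Median centring and quantile normalization put Hes7 at -0.80 and -0.77. Signals near or under the array median limit what can be said of Lfng, Heyl, Hey2 and the dimmer Hes5 probe set. The brighter Hes5 probe set had null pool 1 under that median too (60.4). Its log2 difference was -1.33 without that pool and -1.39 on the scale of log2(signal + 50).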

Other observations

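The spread between pools of one genotype differed among the 8 genes, and these ratios of the highest to the lowest pool were not tested. For Hes7 it was 1.03-fold in null and 1.69-fold in wild-type pools. Lfng was the reverse, at 6.11-fold in null and 1.18-fold in wild-type pools. However, its null signals of 24.2 and 54.1 lie below the signal of the median probe set, 71.5, where values vary widely. Hes5 had 2.97-fold and 1.61-fold, Nrarp 1.29-fold and 1.36-fold, and Heyl 1.13-fold and 1.14-fold by their brightest probe sets. Each pool mixes 3 embryos, and the point of the clock cycle at which each embryo was caught is not recorded in the labels.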
